A study of Mus musculus with 6 samples.

Results

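The genes described here are 42 genes of fibroblasts and of the non-collagen extracellular matrix, followed in tibialis anterior muscle of mice. Members were matched by gene symbol to probe sets with a single symbol in the platform annotation, and 39 of the 42 were measured, among 19938 genes in all. Each of the 39 had 1 such probe set, so no choice between probe sets was needed. Fbn1 and Efemp2 had no listed probe set and were not analysed here, and Loxl2 was left out because its probe set also carries another symbol. Ctgf stands in the annotation under its current symbol, Ccn2. RNA came from whole muscle of 11-week-old mice starved for 6 h, hybridised to 3 arrays for MLC-SOCS-3 transgenic mice and 3 for control mice, all C57Bl6J. The labels do not expand MLC, and they name neither a founder line nor the part of Socs3 that the transgene carries. The labels do not tie the numbered replicates to separate animals. The p-values therefore rest on the spread among these 6 samples, and that spread may be only technical.

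Each array gave a log2 intensity per probe set. Limma's test between the labelled groups ran over all 35557 probe sets, with Benjamini-Hochberg adjustment and a threshold of 0.05. Each difference is the MLC-SOCS-3 mean less the control mean on the log2 scale. Of the 39 members, 38 lay above the median probe set at 5.99, Timp1 being the exception. The 9 skeletal muscle fibre markers averaged between 14.07 and 14.11 on all 6 arrays. Socs3 itself read 7.07, 7.12 and 7.25 on the arrays labelled MLC-SOCS-3, against 7.37, 7.41 and 7.43 on the control arrays. It was therefore not higher on the arrays labelled as transgenic (difference -0.26 ± 0.07, SE, limma adjusted p = 0.80), and every direction below is given for the arrays as labelled.

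In skeletal muscle most of this matrix is made not by the fibres but by interstitial fibroblasts, which carry the receptor Pdgfra and lie in the connective tissue around fibres, vessels and nerves. Proteoglycans such as decorin and lumican coat collagen fibrils and set their diameter. Elastin, the fibulins and the microfibril proteins form elastic fibres, lysyl oxidases crosslink both collagen and elastin, and matricellular proteins such as periostin and tenascin C appear where matrix is being rebuilt. Metalloproteases and their inhibitors, the Timps, set the turnover of all of these.

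As a list, 28 of the 39 members had a positive difference and 11 a negative one, a share of 71.8% positive beside 43.8% of all genes. The median difference was 0.064, beside -0.016 over all genes, and the member differences ran from -0.28 for Pi16 to 0.52 for Postn. The values over all genes take in weaker genes, whereas 38 of the 39 members lay above the median probe set. Among probe sets above the median level alone, the median was 0.063 for the members, beside 0.0011 for all genes. Limma called 0 of the 39 members at an adjusted p under 0.05, as it called 0.0% of all probe sets. At an unadjusted p under 0.05 there was 1 member, the lower-reading Pi16, beside 4.86% of all genes (1.36% higher and 3.5% lower). The adjusted p-values of the members ranged from 0.80 to 0.99. In whole tissue, fewer cells of a type and less RNA per cell cannot be told apart.

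Array by array the members did not split by group. Their mean deviation from each gene's own average over the 6 arrays was -0.13, 0.14 and 0.092 on MLC-SOCS-3 replicates 1, 2 and 3, against -0.037, -0.066 and -0.0030 on control replicates 1, 2 and 3. MLC-SOCS-3 replicate 1 lay below all 3 controls, and the other MLC-SOCS-3 arrays lay above them. Inside the MLC-SOCS-3 group, replicate 1 was the lowest of the 3 arrays for 29 of 39 members, or 74.4%, beside 29.9% of all genes. Thy1, Vcan, Loxl1, Serpinh1, Fn1, Sparc, Postn and Timp1 were among them. Replicate 2 gave the highest reading of all 6 arrays for 15 members (38.5%) and replicate 3 for 11 (28.2%). Over all genes these shares were 13.5% and 15.4%. Without MLC-SOCS-3 replicate 1 the median difference of the members was 0.12, and without MLC-SOCS-3 replicate 2 or control replicate 1 it was 0.023 or 0.031. The share of positive members was 59.0% without MLC-SOCS-3 replicate 3.

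**Figure D1:**
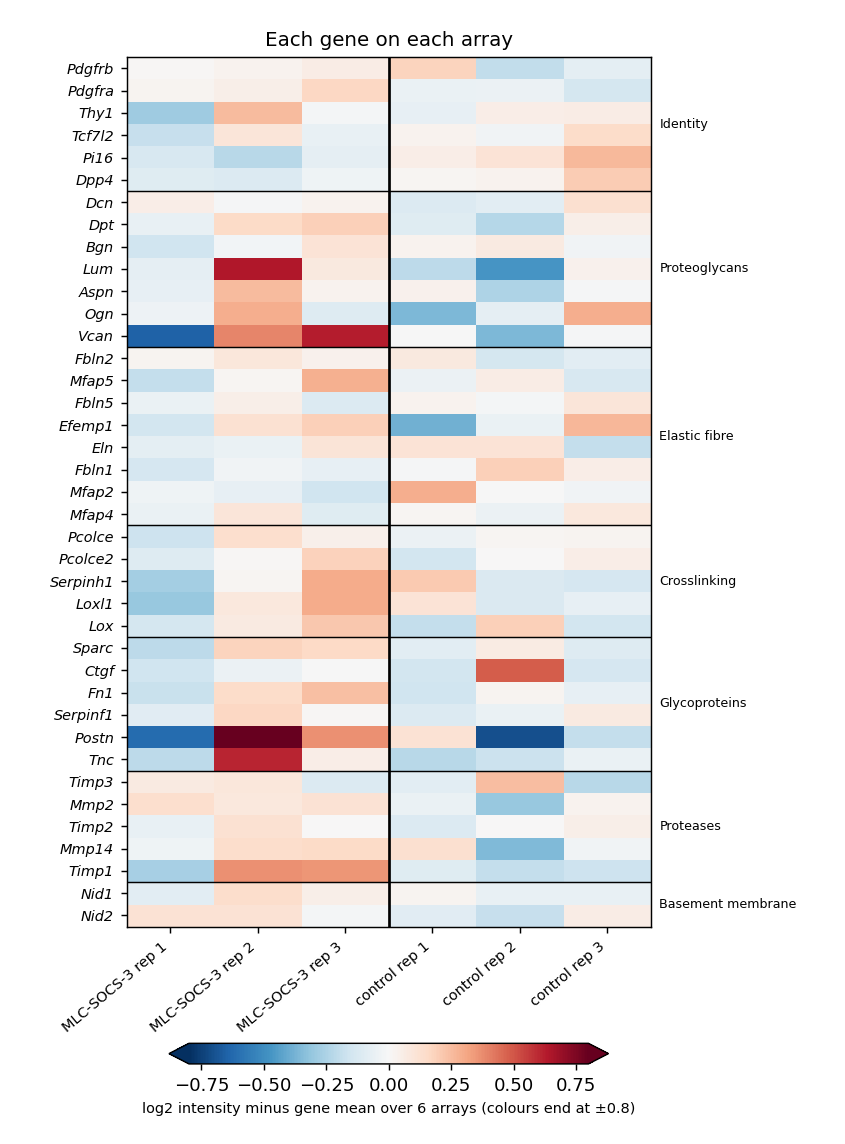
Each of the 39 measured genes (rows, grouped by role) on each of the 6 arrays (columns), coloured by log2 intensity minus the gene's mean over the 6 arrays, with red for higher and blue for lower. The column of MLC-SOCS-3 replicate 1 is mostly blue and those of MLC-SOCS-3 replicates 2 and 3 mostly red, with the darkest cells in Postn, Vcan, Lum and Tnc.

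The groups did not overlap for 6 members, of which 2 were higher and 4 lower on the arrays labelled MLC-SOCS-3. Among all genes, 4.52% were separated upwards and 7.76% downwards, so these counts are near the background. The separated members were Pdgfra and Mmp2 on the higher side and Pi16, Dpp4, Fbln1 and Mfap2 on the lower side.

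Markers of fibroblast identity had differences of both signs, and limma called 0 of the 6. Pi16 marks, with Dpp4, a widely shared fibroblast population of mouse connective tissue. Its readings were 6.81, 6.71 and 6.86 on the MLC-SOCS-3 arrays, against 6.99, 7.05 and 7.19 on the controls. All 3 MLC-SOCS-3 arrays lay below every control. The difference was -0.28 ± 0.08 (SE), a 1.22-fold lower intensity with a 95% interval from -0.49 to -0.08 (limma, unadjusted p = 0.0141, adjusted p = 0.80). Dpp4, a cell-surface peptidase found on the same population, read 6.79, 6.78 and 6.85 on the MLC-SOCS-3 arrays and 6.91, 6.92 and 7.09 on the controls. Here too the groups did not overlap, with control replicate 3 the highest array for both genes. Its difference was -0.16 ± 0.08 (limma, adjusted p = 0.83).

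Pdgfra, the growth factor receptor that defines the fibro-adipogenic progenitors of muscle, stood on the other side. Its readings were 8.49, 8.52 and 8.63 on the MLC-SOCS-3 arrays, against 8.42, 8.42 and 8.33 on the control arrays. The 2 groups did not overlap. Their means differed by 0.16 ± 0.07 (SE, limma adjusted p = 0.83), and the interval of -0.02 to 0.33 included 0. Pdgfrb, its relative on pericytes and fibroblasts, read 8.84, 8.86 and 8.89 on the MLC-SOCS-3 arrays and 9.01, 8.63 and 8.76 on the controls. Its MLC-SOCS-3 readings lay inside the control range. Thy1, a surface glycoprotein of fibroblasts, differed by -0.03 ± 0.14, and Tcf7l2, a transcription factor of muscle connective tissue fibroblasts, by -0.10 ± 0.10. Of the 6 identity markers, 2 were positive and 4 negative, with a median of -0.065.

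**Figure D2:**
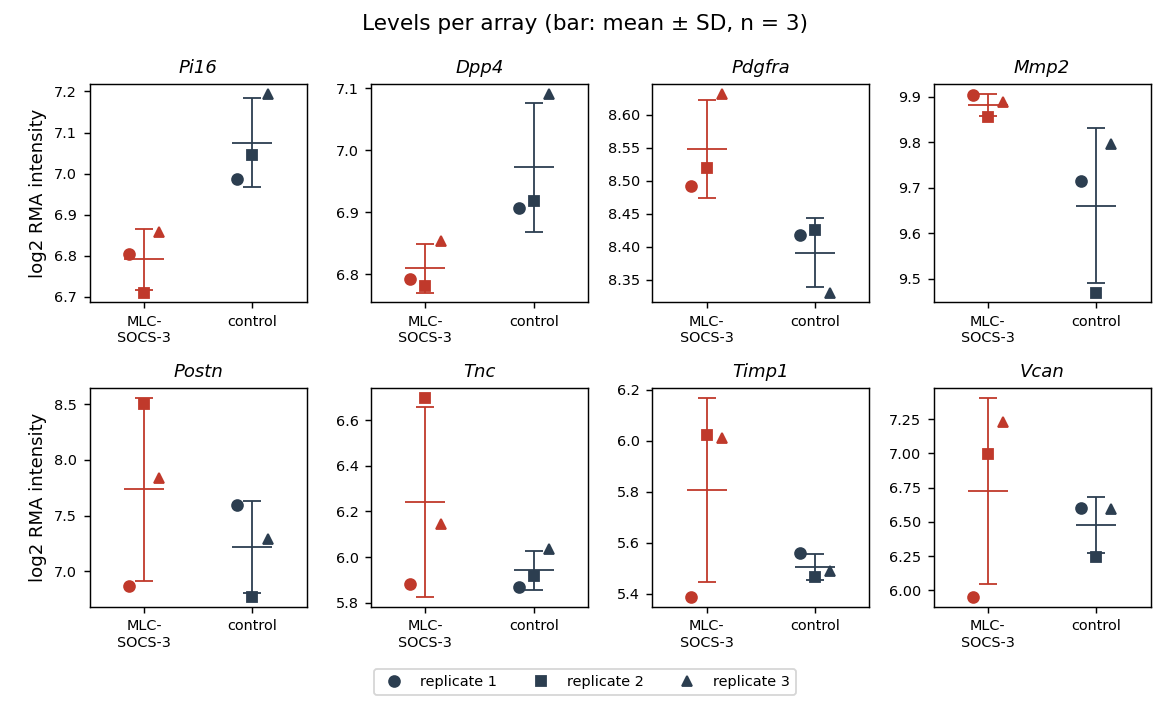
Log2 RMA intensity of 8 genes on each array, MLC-SOCS-3 on the left and control on the right of each panel, with symbols for the replicate number and bars for the mean ± SD (n = 3 each). The groups do not overlap for Pi16, Dpp4, Pdgfra and Mmp2, while MLC-SOCS-3 replicate 1 (circle) lies well below replicates 2 and 3 for Postn, Timp1 and Vcan. Each panel has its own axis range, which does not start at 0.

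The proteoglycans and their partners had 6 of 7 members positive and a median of 0.15. Lum, which encodes lumican, a regulator of collagen fibril assembly, read 8.61, 9.32 and 8.76 on the MLC-SOCS-3 arrays, against 8.47, 8.21 and 8.72 on the controls. MLC-SOCS-3 replicate 2 stood above the other 5 arrays, while replicate 1 lay below control replicate 3. The difference of 0.43 ± 0.22 (SE), a 1.35-fold higher intensity, did not pass the test (limma, adjusted p = 0.85), and it was 0.22 without MLC-SOCS-3 replicate 2. Dcn, which encodes decorin, the neighbouring gene on chromosome 10, gave 12.40, 12.34 and 12.38 on the MLC-SOCS-3 arrays and 12.24, 12.27 and 12.48 on the controls. Decorin thus differed by only 0.05 ± 0.08, with an interval of -0.16 to 0.25, and its MLC-SOCS-3 arrays lay inside the control range.

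Dpt, which encodes dermatopontin, a small decorin-binding matrix protein, read 8.96, 9.17 and 9.21 on the MLC-SOCS-3 arrays, against 8.92, 8.79 and 9.06 on the controls. MLC-SOCS-3 replicate 1 lay within the control range and replicates 2 and 3 above it. Aspn, which encodes asporin, an inhibitor of TGF-beta, read 8.54, 8.86 and 8.63 on the MLC-SOCS-3 arrays and 8.64, 8.36 and 8.60 on the controls, with overlapping groups. Vcan, which encodes versican, a large proteoglycan of provisional matrix, showed one of the widest ranges, at 5.95, 6.996 and 7.23 on the MLC-SOCS-3 arrays, against 6.60, 6.24 and 6.59 on the controls. Its MLC-SOCS-3 readings stood both below and above all controls. The mean difference of 0.25 ± 0.34 (SE, limma adjusted p = 0.92) carries an interval from -0.58 to 1.07. Ogn (osteoglycin) differed by 0.09 ± 0.19 and Bgn (biglycan), the close relative of decorin, by -0.05 ± 0.09.

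Of the 8 measured genes of the elastic fibre and its microfibrils, 3 were positive and 5 negative, with a median of -0.026. Fbln1, a fibulin of basement membranes and elastic fibres, read 7.16, 7.27 and 7.23 on the MLC-SOCS-3 arrays, against 7.28, 7.49 and 7.35 on the controls. The groups were separated by a gap smaller than the spread inside either one, and the difference was -0.16 ± 0.08 (SE, limma adjusted p = 0.85). Mfap2, a microfibril glycoprotein, read 6.81, 6.78 and 6.69 on the MLC-SOCS-3 arrays and 7.14, 6.85 and 6.82 on the controls. Only control replicate 1 stood clearly above the rest, and the difference was -0.17 ± 0.11.

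Fbln2, another fibulin, gave 9.37, 9.43 and 9.38 on the MLC-SOCS-3 arrays, against 9.42, 9.20 and 9.26 on the controls, a difference of 0.10 ± 0.08 (SE) with overlapping groups. Efemp1, a fibulin-family glycoprotein, varied chiefly among the controls, at 7.90, 8.16 and 8.23 on the MLC-SOCS-3 arrays and 7.66, 7.99 and 8.30 on the controls. Its control readings held both the lowest and the highest of the 6. Eln, which encodes elastin, differed by -0.02 ± 0.11, Fbln5, which is needed for elastin assembly, by -0.07 ± 0.07, Mfap4 by -0.03 ± 0.08 and Mfap5 by 0.08 ± 0.13. Elastin's interval ran from -0.29 to 0.25.

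The enzymes and helpers of collagen maturation had 5 of 5 positive differences, all of them below 0.1, with a median of 0.051 that was -0.016 without MLC-SOCS-3 replicate 3. Lox, the lysyl oxidase that starts crosslinking of collagen and elastin, read 6.67, 6.88 and 7.03 on the MLC-SOCS-3 arrays, against 6.62, 7.005 and 6.67 on the controls. The difference was 0.10 ± 0.14 (SE, limma adjusted p = 0.93), and the groups overlapped. Loxl1, the lysyl oxidase of elastic fibres, read 7.33, 7.72 and 7.93 on the MLC-SOCS-3 arrays and 7.74, 7.52 and 7.56 on the controls. MLC-SOCS-3 replicate 1 was its lowest array and replicate 3 its highest, and Serpinh1, a collagen-specific chaperone, had the same lowest and highest arrays (0.02 ± 0.17).

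Pcolce, an enhancer of procollagen cleavage, read 8.85, 9.15 and 9.06 on the MLC-SOCS-3 arrays, against 8.97, 9.03 and 9.03 on the controls. The groups overlapped and their means were nearly equal, with a difference of 0.0066 ± 0.09 (SE). Its relative Pcolce2 read 7.77, 7.88 and 8.06 on the MLC-SOCS-3 arrays and 7.73, 7.88 and 7.93 on the controls. That difference was 0.06 ± 0.10, again with overlapping groups. In this role the mean deviation was -0.20, 0.063 and 0.21 on MLC-SOCS-3 replicates 1, 2 and 3, against -0.014, -0.0033 and -0.055 on the controls, so that the MLC-SOCS-3 arrays lay on both sides of the controls.

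The adhesive and matricellular glycoproteins held the widest member of the list. Postn, which encodes periostin, a matrix protein made by activated fibroblasts, read 6.86, 8.50 and 7.84 on the MLC-SOCS-3 arrays, against 7.59, 6.77 and 7.29 on the controls. Its 6 readings span 1.73 log2 units, with MLC-SOCS-3 replicate 2 at the top and control replicate 2 at the bottom. The difference of 0.52 ± 0.44 (SE), a 1.43-fold higher mean intensity, did not pass the test (limma, adjusted p = 0.87), and its interval ran from -0.55 to 1.58. Tnc, which encodes tenascin C, read 5.88, 6.70 and 6.15 on the MLC-SOCS-3 arrays, against 5.87, 5.92 and 6.04 on the controls. Replicates 2 and 3 stood above every control and replicate 1 did not. The standard deviation was 0.42 on the MLC-SOCS-3 arrays and 0.09 on the controls (n = 3 each), and the difference was 0.30 ± 0.21 (limma, adjusted p = 0.86).

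Fn1, which encodes fibronectin, the adhesive scaffold on which other matrix proteins assemble, read 9.11, 9.44 and 9.53 on the MLC-SOCS-3 arrays, against 9.13, 9.31 and 9.23 on the controls. Replicate 1 was below every control, and replicates 2 and 3 were above every control. Sparc, a collagen-binding glycoprotein, read 11.39, 11.78 and 11.76 on the MLC-SOCS-3 arrays and 11.52, 11.67 and 11.50 on the controls, again with replicate 1 below and the other MLC-SOCS-3 arrays above all controls. Ctgf, a target of TGF-beta and of the Hippo pathway, was the only negative member of the 6, at -0.14 ± 0.18 (SE). Control replicate 2 was its highest array at 9.83, and the other 5 arrays lay between 9.18 and 9.34. Serpinf1, a secreted serpin that restrains vessel growth, differed by 0.06 ± 0.09. The median over the 6 genes was 0.11.

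Among the proteases and inhibitors all 5 differences were positive, with a median of 0.17. Mmp2, the gelatinase that fibroblasts secrete, read 9.90, 9.86 and 9.89 on the MLC-SOCS-3 arrays, against 9.72, 9.47 and 9.80 on the controls. The MLC-SOCS-3 readings were close together and above every control, and the difference was 0.22 ± 0.10 (SE), with a 1.17-fold higher intensity and an adjusted p of 0.83 in limma. Mmp14, the membrane protease that activates Mmp2, read 7.91, 8.08 and 8.10 on the MLC-SOCS-3 arrays and 8.07, 7.59 and 7.92 on the controls. Control replicate 2 gave the lowest reading for both proteases, and for Mmp14 the groups overlapped.

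Timp1, an inhibitor of metalloproteases that rises in inflamed and regenerating tissue, read 5.39, 6.02 and 6.01 on the MLC-SOCS-3 arrays, against 5.56, 5.46 and 5.49 on the controls. MLC-SOCS-3 replicate 1 was the lowest of the 6 arrays, and replicates 2 and 3 were the highest. The standard deviation was 0.36 on the MLC-SOCS-3 arrays and 0.05 on the controls (n = 3 each), a ratio of 7.21 that no other member reached. The difference was 0.30 ± 0.18 (SE, limma adjusted p = 0.86), on a probe set below the median level. Timp3, the inhibitor that stays bound to matrix, read 9.92, 9.93 and 9.73 on the MLC-SOCS-3 arrays and 9.75, 10.09 and 9.62 on the controls, and Timp2, the partner of Mmp14 in activating Mmp2, differed by 0.04 ± 0.08. Both had overlapping groups.

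The nidogens, which link laminin to the collagen network of the basement membrane around each fibre, were both positive. Nid1 read 8.87, 9.09 and 8.996 on the MLC-SOCS-3 arrays, against 8.97, 8.89 and 8.89 on the controls, and differed by 0.06 ± 0.08 (SE). Nid2 read 7.26, 7.26 and 7.13 on the MLC-SOCS-3 arrays and 7.05, 6.96 and 7.21 on the controls, and differed by 0.14 ± 0.09. The groups overlapped for both genes.

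**Figure D3:**
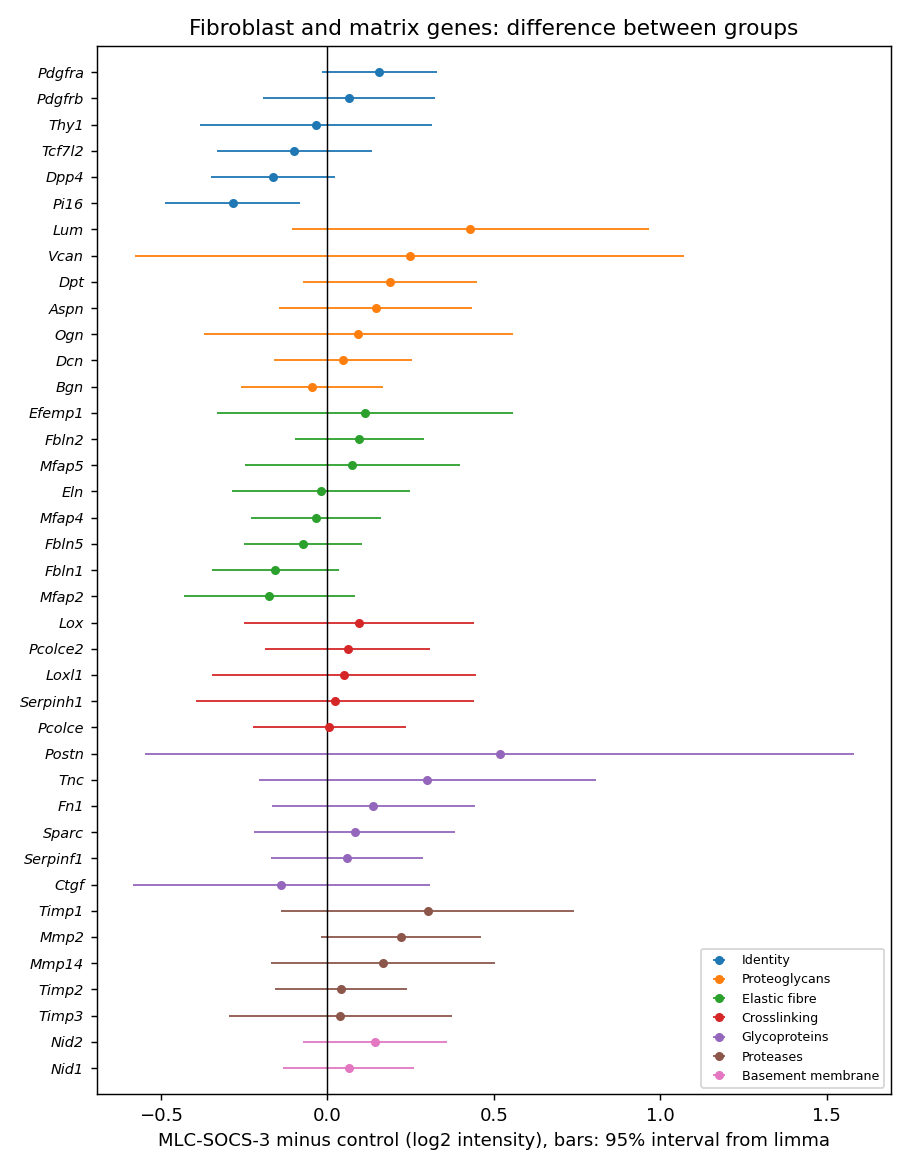
Difference between groups for each of the 39 genes (MLC-SOCS-3 minus control, log2 intensity), with bars for limma's 95% interval and colours for the roles. The interval includes 0 for 38 genes, Pi16 being the exception, and it is widest for Postn and Vcan.

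How far the test depended on 1 array differed between genes. Pi16 kept an unadjusted p under 0.05 when any of the 6 arrays was left out, with differences between -0.33 and -0.22. Without MLC-SOCS-3 replicate 1 there were 6 members under 0.05 unadjusted in place of 1, beside 2374 of 35557 probe sets in place of 2105. The 6 were Pi16, Vcan, Fn1, Postn, Tnc and Timp1. The difference was then 0.95 for Postn, 0.63 for Vcan, 0.51 for Timp1, 0.48 for Tnc and 0.26 for Fn1. Limma still called 0 members, the lowest adjusted p being 0.66 for Timp1. Without MLC-SOCS-3 replicate 2 the difference was 0.13 for Postn, 0.19 for Timp1 and 0.073 for Tnc. Without MLC-SOCS-3 replicate 3 it was -0.0035 for Vcan and 0.054 for Fn1. Among the members with separated groups, Mmp2 was at 0.13 without control replicate 2, Fbln1 at -0.098 without control replicate 2, Dpp4 at -0.10 without control replicate 3 and Mfap2 at -0.071 without control replicate 1.

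The promoters of Postn, Tnc and Timp1, genes with a wide spread among the MLC-SOCS-3 arrays, and of Pi16, the member with the smallest p, are printed here to show the DNA around their starts. These were chosen after the values had been seen. Sequences are from RefSeq on GRCm38.p6, 5′ to 3′ on the gene's strand, from 250 bases before to 50 bases after an annotated start, with matches to the motifs searched in capitals. Postn and Tnc have more than 1 annotated start, and the one downstream is shown.
Postn, chr3:54360857-54361156, plus strand: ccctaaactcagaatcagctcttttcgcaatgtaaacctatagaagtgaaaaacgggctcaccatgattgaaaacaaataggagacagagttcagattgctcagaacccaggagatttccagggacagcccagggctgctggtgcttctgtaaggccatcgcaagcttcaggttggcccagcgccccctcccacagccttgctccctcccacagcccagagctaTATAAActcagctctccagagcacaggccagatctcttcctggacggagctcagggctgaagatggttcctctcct
Tnc, chr4:64046887-64047186, minus strand: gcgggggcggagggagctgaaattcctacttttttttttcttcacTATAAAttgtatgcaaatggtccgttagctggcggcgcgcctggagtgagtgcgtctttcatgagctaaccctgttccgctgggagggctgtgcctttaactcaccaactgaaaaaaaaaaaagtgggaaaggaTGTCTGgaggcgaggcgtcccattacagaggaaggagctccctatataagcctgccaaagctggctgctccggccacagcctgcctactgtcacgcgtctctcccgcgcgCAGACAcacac
Timp1, chrX:20869916-20870215, plus strand: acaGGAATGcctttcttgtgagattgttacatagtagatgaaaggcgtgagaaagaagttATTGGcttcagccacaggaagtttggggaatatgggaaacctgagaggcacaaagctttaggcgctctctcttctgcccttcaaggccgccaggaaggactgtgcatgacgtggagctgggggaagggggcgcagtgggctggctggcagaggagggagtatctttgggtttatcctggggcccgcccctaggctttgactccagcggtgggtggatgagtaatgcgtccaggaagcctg
Pi16, chr17:29318632-29318931, plus strand: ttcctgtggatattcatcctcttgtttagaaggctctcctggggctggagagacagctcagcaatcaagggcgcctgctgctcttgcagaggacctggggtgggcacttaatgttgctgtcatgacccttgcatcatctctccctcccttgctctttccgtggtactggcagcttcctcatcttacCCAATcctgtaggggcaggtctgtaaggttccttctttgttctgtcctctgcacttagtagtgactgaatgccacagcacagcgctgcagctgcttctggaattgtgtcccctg
In Postn the capitals mark a TATA box 26 bases before the start. Tnc holds a TATA match 205 bases and an inverted SMAD match 71 bases before the start, and a second SMAD match after it. Timp1 holds an inverted TEAD match and an inverted CCAAT box, 247 and 190 bases before its start, and Pi16 a CCAAT box 64 bases before its start.

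Every motif was searched on both strands, and in the printed sequences no match overlapped another. RefSeq promoters were found for 26 of the 39 measured members, with 32 starts. The STAT motif, spelled TTCNNNGAA and searched because SOCS-3 restrains STAT signalling, was present in 2 starts, those of Dpt and Pcolce2. That is 6.25% of member starts, beside 8.30% of 32851 promoters of the same length. The motif of AP-1, spelled TGANTCA, was found in 3.13% of member starts beside 7.81% of all promoters. For the TEAD factors of the Hippo pathway the letters were CATTCC, found in 15.6% of member starts beside 14.7%. For the SMAD proteins of TGF-beta signalling they were CAGACA, found in 28.1% beside 21.0%. The TATA box was searched as TATAAA and was present in 25% of member starts beside 13.6% of all promoters. The CCAAT box, by its own letters, was in 34.4% beside 37.4%. A match is a run of letters and not a measured site.

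Other genes of the same tissue compartment were set beside the members. All 12 collagen genes were positive, with a median of 0.082, led by Col3a1 at 0.28 ± 0.14 (SE) and Col5a2 at 0.19 ± 0.10. Their mean deviation was -0.14, 0.17 and 0.13 on MLC-SOCS-3 replicates 1, 2 and 3, against -0.030, -0.034 and -0.10 on controls 1, 2 and 3. As in the members, replicate 1 lay below all controls and replicates 2 and 3 above them, while the controls stood in another order. Of 46 other matrix genes measured, 28 were positive and 18 negative, with a median of 0.031 and differences from -0.31 to 0.53. Limma called 0 of them, and 2 of the 46 were under 0.05 unadjusted, beside 4.86% of all genes. These 2 were Adamts1, an aggrecan- and versican-cleaving protease, at -0.21 ± 0.07, and Spon2, a matrix protein that binds integrins, at -0.31 ± 0.11. Loxl4, a further lysyl oxidase, was at -0.22 ± 0.10. Spon2 and Loxl4 both lay below the median probe set. Over the 46 genes the mean deviation was -0.070, 0.065 and 0.058 on MLC-SOCS-3 replicates 1, 2 and 3. On controls 1, 2 and 3 it was -0.033, -2.9e-05 and -0.020. Here too replicate 1 lay below all controls and replicates 2 and 3 above them.

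Fibroblast markers outside the list did not show the same order of arrays by their mean deviation, and by their median deviation only in part. Of 13 measured, 9 were positive, with a median of 0.023, and their mean deviation was -0.0063, 0.028 and -0.015 on MLC-SOCS-3 replicates 1, 2 and 3, against 0.014, -0.055 and 0.035 on the controls. The median deviation was -0.041, 0.033 and -0.022, against -0.018, -0.077 and 0.0029 on the controls. By the median, replicate 1 was thus the lowest MLC-SOCS-3 array, but control replicate 2 was lower still. Gsn, which encodes the actin-severing protein gelsolin, was at 0.16 ± 0.07 (SE) with no overlap between groups. Apod, a lipid carrier of fibroblasts, was at -0.18 ± 0.10, and Clec3b, which encodes tetranectin, at -0.12 ± 0.09. TGF-beta signalling genes had 4 of 12 positive and a median of -0.051. Its feedback inhibitor Smad7 was at -0.13 ± 0.08, the co-receptor Tgfbr3 at -0.12 ± 0.08 and the ligand Tgfb2 at 0.20 ± 0.15, and limma called 0 of the 12, with 0 under 0.05 unadjusted.

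Markers of other cell types moved across the same arrays, and their part in the values above was not tested. The 10 macrophage markers averaged 7.03, 7.32 and 7.41 on MLC-SOCS-3 replicates 1, 2 and 3, against 6.85, 7.27 and 7.19 on the controls, with 8 of 10 positive. Replicate 1 was again the lowest of the MLC-SOCS-3 arrays, but control replicate 1 was lower still. Itgam, an integrin of myeloid cells, was at 0.57 ± 0.11 (SE) on a probe set below the median level, the 1 macrophage marker under 0.05 unadjusted. The lysosomal glycoprotein Cd68 was at 0.51 ± 0.29 and read 6.34, 7.21 and 7.49 on the MLC-SOCS-3 arrays, against 6.54, 6.49 and 6.47 on the controls. C1qb, a complement subunit, was at 0.15 ± 0.19. Its partner subunits C1qa and C1qc, the 2 negative markers of this list, were at -0.09 ± 0.16 and -0.07 ± 0.22. Adipocyte markers averaged between 6.69 and 6.86 on the MLC-SOCS-3 arrays and between 6.52 and 6.60 on the controls, with 6 of 7 positive. Adipoq, which encodes adiponectin, was at 0.64 ± 0.10 on a probe set below the median level, and alone under 0.05 unadjusted.

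Tendon genes ran the other way, with 2 of 9 positive and a median of -0.20. Their mean level was 7.47 to 7.58 on the MLC-SOCS-3 arrays, against 7.47, 7.82 and 7.79 on control replicates 1, 2 and 3, so control replicate 1 lay with the MLC-SOCS-3 arrays. Mkx and Cilp2 were at -0.35 ± 0.07 (SE) and -0.36 ± 0.08, and Comp, a cartilage and tendon matrix protein, at -0.23 ± 0.09, all 3 under 0.05 unadjusted. Of these, Mkx lay below the median probe set. Fmod belongs both to this list and to the other matrix genes. Endothelial markers had 3 of 8 positive (median -0.017), smooth muscle and pericyte markers 3 of 8 (median -0.040), Schwann cell markers 0 of 5 (median -0.086) and lymphocyte markers 2 of 6 (median -0.18). Of the 6 lymphocyte markers, 4 lay below the median probe set, and 1 was under 0.05 unadjusted, with a negative difference. The 9 muscle fibre markers had a median of -0.0095. Limma called 0 genes in any of these lists.

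**Figure D4:**
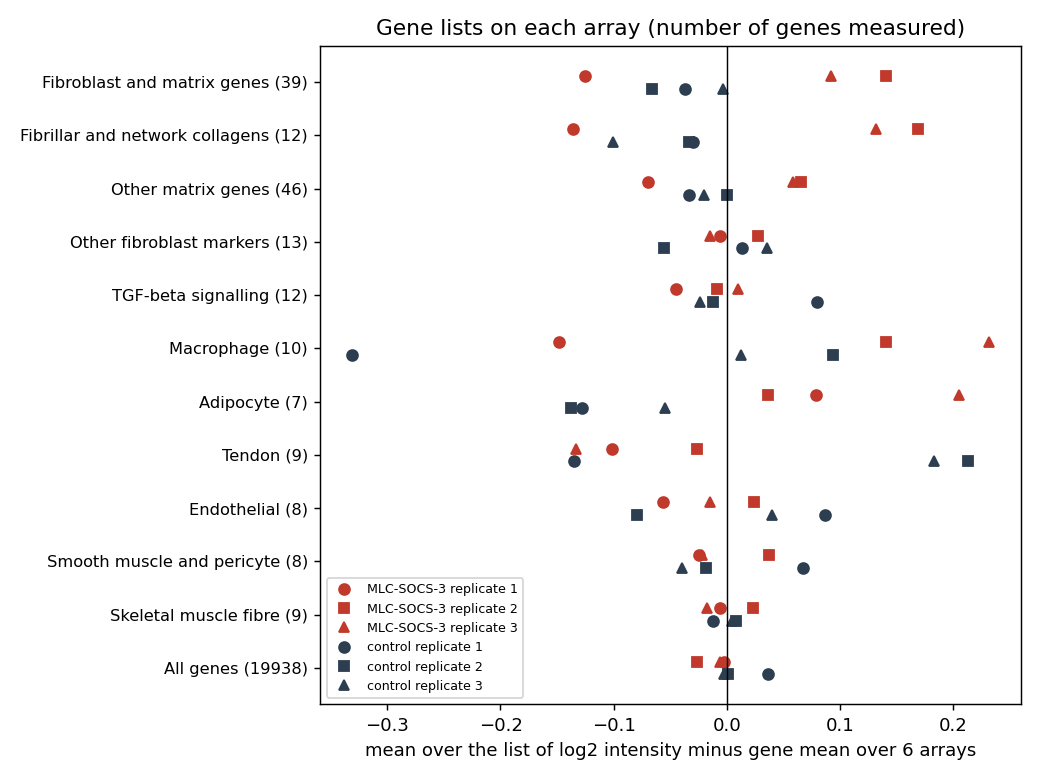
Mean over each gene list of log2 intensity minus the gene's mean over the 6 arrays, with 1 point per array, MLC-SOCS-3 in red above control in dark blue and symbols for the replicate number. For the fibroblast and matrix genes, the collagens and the other matrix genes, MLC-SOCS-3 replicate 1 lies to the left of all controls. Replicates 2 and 3 lie to the right of them, and the muscle fibre markers lie near 0.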

How the data were processed

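The authors' deposited table holds 1 log2 intensity per probe set and array, and per the submitters' processing notes the tools were RMA and Affymetrix Expression Console. No version or genome build is stated there. RMA subtracts background, gives all arrays the same distribution and joins a set's probes into 1 value, which compresses differences of weak and very strong signals. Values ran from 1.41 to 15.1, array medians from 5.98 to 6.04, and they were used as deposited. At most 36 of 35557 values were identical between any pair of arrays. There are no counts and no detection calls, so the number of arrays limits the precision.

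Symbols came from the platform annotation, which lists 23410 of the probe sets, 21789 with 1 symbol, and 21698 were updated through the GRCm38.p6 gene table. A gene was represented by its single-symbol probe set with the highest mean, and levels of single probe sets were set only against the median probe set. A two-sided test was fitted with lmFit and eBayes of limma 3.58.1 under R 4.3.3 over all probe sets. It was tested on simulated data for this comparison with 200 changed genes above the median level in each of 5 simulations over 35557 probe sets, and it recovered 92.4% of 2-fold and 40% of 1.5-fold changes, with at most 8 false calls. The changed genes were picked at random, and noise was drawn independently for each gene. The median range was 0.42 for the members, beside 0.24 for genes above the median gene, so recovery may be lower for wide-ranging members such as Postn. Lists are given as counts and medians beside those of all genes.

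The members and lists were chosen with earlier results of these data known. Values on every array are given for members with an unadjusted p under 0.05, the 3 smallest p and the highest level in each role, and the 5 widest ranges. Up to 3 genes with the smallest p were named from each other list, although those of the endothelial, smooth muscle, Schwann cell, lymphocyte and muscle fibre lists are given as counts and medians alone. C1qa and C1qc were named in addition, beside C1qb. Alternatives were median centring, trend and robust moderation, the same on listed probe sets alone, probe sets above the median, gene means over probe sets, the replicate number as a block and leaving out each array.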

Additional observations from a re-analysis of the deposited data

How the results depend on the processing

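Limma called 0 of the members in every alternative run, the lowest adjusted p of any member being 0.66. Over all probe sets it called 11 of 23410 on the listed probe sets with trend and robust moderation. It called 1 without control replicate 2 and 0 in the other runs. At an unadjusted p under 0.05 there was 1 member in the main setting, beside 2105 of 35557 probe sets. There were 3 under median centring (2093 of 35557) and 3 with trend and robust moderation (2032 of 35557). The listed probe sets with trend and robust moderation gave 4 (1509 of 23410), and probe sets above the median level gave 3 (1185 of 17778). When an array was left out there were 1 to 6 (1791 to 2374 of 35557). Pi16 was among them each time, and Pdgfra and Mmp2 joined it in the settings with 3 or 4. With the replicate block there was 1, and the member median stayed 0.064, as a balanced block leaves each difference as it was. The block left the calls at 0, as in the main setting. Deviations of same-numbered arrays had correlations of -0.026, -0.018 and -0.043, and those of unlike-numbered arrays ran from -0.038 to 0.064. With 3 arrays a group these values cannot decide whether same-numbered samples were handled together. Leaving out 1 array moved the share of positive members, 71.8%, to between 59.0% and 79.5%, and it moved the role medians. These ran from -0.16 to 0.022 for the identity markers, 0.064 to 0.26 for the proteoglycans, -0.044 to -0.00014 for the elastic fibre genes, -0.016 (without MLC-SOCS-3 replicate 3) to 0.17 for crosslinking and maturation, 0.044 to 0.24 for the glycoproteins, 0.13 to 0.25 for the proteases and inhibitors and 0.066 to 0.13 for the nidogens. Of the 27 members given on every array, 20 kept their sign in all alternatives. The others changed sign only when an array was left out, with ranges of -0.049 to 0.27 for Efemp1, -0.084 to 0.22 for Loxl1, -0.060 to 0.092 for Pcolce, -0.016 to 0.13 for Pcolce2, -0.017 to 0.17 for Pdgfrb, -0.062 to 0.17 for Timp3 and -0.0035 to 0.63 for Vcan. Gene means over probe sets gave the same values, since each member has 1 probe set. Timp1 is absent from the probe sets above the median level. The causes were not tested. With 3 arrays a group, members' intervals reach as far as 1.58. For Postn the interval of -0.55 to 1.58 excludes neither no change nor a rise of up to 1.58.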
